A study of Homo sapiens with 11 samples.

Results

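The 81 genes described here encode the proteins of the cytosolic ribosome. They were chosen by name from the 57736 rows of the count table: protein-coding genes called RPL or RPS plus a number with at most 1 trailing letter (A, X or L), together with RPLP0, RPLP1, RPLP2 and RPSA, and without the RPS4Y genes and the RPS6K kinases. Of these, 49 carry large-subunit names and 32 small-subunit names. A filter on low counts left 13980 genes to test, among them 78 of the 81 members. RPL10L with 0 counts, RPL3L with 1 count and RPL39L with 40 counts over all libraries did not pass it.

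All samples were HEC50B, an endometrial cancer cell line. The groups were R183W cells given 50 µM WM1119 for 4 days (2 libraries), R183W cells given vehicle (3 libraries), WT cells given 50 µM WM1119 for 4 days (3 libraries) and WT cells given vehicle (3 libraries). R183W cells are the parental line, which has that amino acid change in PPP2R1A, the scaffold on which the phosphatase PP2A is built; WT cells are the same line corrected with CRISPR, and WM1119 inhibits the histone acetyltransferase KAT6A. The sources used here do not say whether each genotype is 1 clone. The labels number the replicates without calling them separate cultures, so p-values cover the spread between these libraries, which may be technical only.

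A ribosome holds 1 copy of nearly every ribosomal protein, and cells make them in matched amounts by keeping their mRNAs abundant and controlling how those mRNAs are translated. Vertebrate ribosomal protein mRNAs begin with a C followed by a run of C and T, the terminal oligopyrimidine (TOP) tract, which the protein LARP1 and the kinase complex mTORC1 read to hold back or release translation. The counts below measure the abundance of these mRNAs, not their translation.

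Start sequences are shown for the members whose levels the results turn on and for a pair of paralogs that differ in this element. The lines give 40 bases before and 20 bases from the annotated start in RefSeq (GRCh38.p14), 5′ to 3′ on the gene's strand, with capitals for a pyrimidine tract that a search found, defined as C followed by at least 4 C or T, beginning within 5 bases of the start.
RPL28: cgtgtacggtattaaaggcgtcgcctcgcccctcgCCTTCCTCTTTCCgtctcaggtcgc
RPL31: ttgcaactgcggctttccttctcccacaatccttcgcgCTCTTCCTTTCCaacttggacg
RPLP0: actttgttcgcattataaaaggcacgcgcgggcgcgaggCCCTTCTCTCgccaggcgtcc
RPL36: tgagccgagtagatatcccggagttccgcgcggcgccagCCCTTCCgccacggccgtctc
RPS27: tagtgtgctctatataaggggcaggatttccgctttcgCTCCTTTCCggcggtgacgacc
RPS27L: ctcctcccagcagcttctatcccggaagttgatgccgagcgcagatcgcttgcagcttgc
The windows lie at chr19:55385892-55385951 on the plus strand for RPL28, chr2:101002249-101002308 on the plus strand for RPL31, chr12:120201092-120201151 on the minus strand for RPLP0, chr19:5690255-5690314 on the plus strand for RPL36, chr1:153990722-153990781 on the plus strand for RPS27 and chr15:63157458-63157517 on the minus strand for RPS27L. Among these 6 windows RPL28 has the longest tract, 13 bases, and RPS27L has none within the window searched.

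A RefSeq window was matched for 64 of the 81 members, and 53 of those (82.8%) held such a tract, against 28.2% of 14896 protein-coding genes. Other elements were searched on both strands of the whole 300-base window, 250 bases before and 50 after the start. CCGGAAG, a core that ETS factors such as GABPA bind, stood in 35.9% of members and 16.7% of coding genes. CTCTTTCC stood in 17.2% of members and 4.04% of coding genes, and it can overlap the tract. AAGATGG, a core of YY1 sites, stood in 12.5% and 8.02%, TATAAA in 9.38% and 12.2%, and CACGTG, the E box of MYC and MAX, in 6.25% and 11.02%. These matches describe letters in the windows and not binding.

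Levels are in CPM, the counts of a gene relative to the library total, here after TMM scaling; totals ran from 2609922 to 6065149 counts, and a count of 0 allows up to 0.495 to 1.24 CPM at a floor of 3 counts, for counting error only. WT WM1119 library 3 had the lowest total, and its group had the widest range between libraries, a median of 1.63-fold over the tested genes against 1.18-fold to 1.39-fold in the other groups; results are therefore also given without it. Of the line's markers, KRT18 averaged 1163 CPM, KRT8 201, EPCAM 63.2 and PAX8 445, whereas KRT19 and CDH1 stayed under 1 CPM and PGR and SOX17 were at 0 counts. COL1A1, a collagen gene of stromal cells, averaged 729 CPM, while DCN and COL3A1 were at 0 counts. Leukocyte markers (4 genes) summed to 2.57 to 11.2 CPM and the 2 matched endothelial markers to at most 0.856 CPM. The 6 stromal markers together summed to 566 to 568 CPM in R183W WM1119 libraries, 729 to 936 in R183W vehicle, 843 to 896 in WT WM1119 and 613 to 695 in WT vehicle libraries. The 5 epithelial markers summed to 1625 to 1627 CPM in R183W WM1119 libraries and 1648 to 1846 in R183W vehicle libraries. In WT cells they summed to 1168 to 1525 with WM1119 and 947 to 1209 with vehicle. The sum was thus higher in R183W without overlap under both treatments. Of the 3 epithelial markers tested, 2 were called higher and 1 lower in R183W under vehicle, against 6.82% and 6.17% of all genes. Under WM1119, 1 was called higher and 0 lower, against 4.64% and 3.92%. Of the 3 stromal markers tested, 1 was higher and 1 lower in R183W under vehicle, and 0 higher and 2 lower under WM1119. The shares of all genes are the same as for the epithelial markers. WM1119 lowered 2 and raised 0 of the stromal markers in R183W cells, against 2.65% and 1.99% of all genes. In WT cells it raised 1 and lowered 0, against 2.33% and 2.53%. The part of these markers in the results was not tested.

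Together the members held 6.20% and 6.03% of the counts of the R183W WM1119 libraries and 6.72%, 6.397% and 6.41% of those of the R183W vehicle libraries. They held 7.90%, 7.83% and 6.28% in the WT WM1119 libraries and 7.50%, 8.01% and 8.46% in the WT vehicle libraries. The R183W libraries thus lay below the WT libraries under each treatment. Under WM1119 the margin to library 3 of the WT group was small, at 6.20% against 6.28%. That WT library also lay below the 3 R183W vehicle libraries and so inside the range of all R183W libraries. Group means were 6.12% ± 0.12 (SD, n = 2), 6.51% ± 0.18 (n = 3), 7.34% ± 0.92 (n = 3) and 7.99% ± 0.48 (n = 3), in that order. The share of mitochondrial ribosomal proteins, a separate set encoded in the nucleus and used inside mitochondria, averaged 0.182%, 0.191%, 0.184% and 0.175% in the same order. In bulk RNA, a smaller share of a gene's counts cannot be told apart from more RNA of other genes, nor fewer expressing cells from less RNA per cell.

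**Figure D1:**
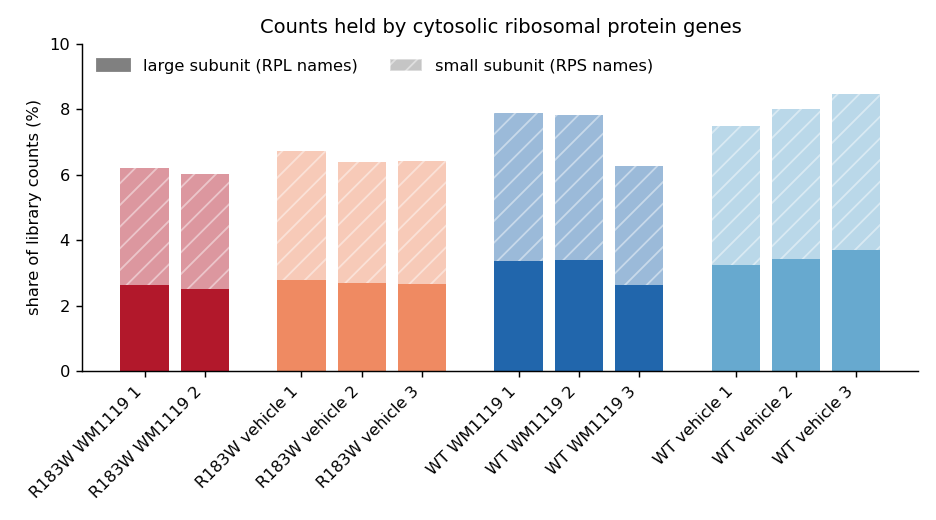
Share of each library's counts (%) held by the 81 cytosolic ribosomal protein genes, split into large-subunit (solid) and small-subunit (hatched) names, 1 bar per library. The 5 R183W libraries sit between 6.03% and 6.72%, and the WT libraries between 6.28% and 8.46%, with WT WM1119 library 3 lowest among them.

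The first question was what 4 days of KAT6A inhibition did to these mRNAs in each genotype. RPL28, a large-subunit protein of metazoan ribosomes, rose with WM1119 in both genotypes and was the largest change among the members. It had 251 and 216 CPM in the R183W WM1119 libraries, against 90.4, 46.9 and 60.6 CPM in the R183W vehicle libraries. In WT cells it had 279, 382 and 266 CPM with WM1119, against 85.2, 76.2 and 44.2 CPM with vehicle. All 5 WM1119 libraries lay above all 6 vehicle libraries. The log2 fold change was 1.82 (SE 0.28, edgeR quasi-likelihood test, adjusted p = 0.0024) in R183W cells and 2.18 (SE 0.26, adjusted p = 0.00052) in WT cells. The calls held under each of the 21 alternatives run, with log2 fold changes of 1.63 to 2.09 and adjusted p of 5.06e-21 to 0.0427 in R183W cells, and of 1.94 to 2.34 with 6.35e-36 to 0.00698 in WT cells.

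GENCODE 29 names no pseudogene of RPL28. Its locus overlaps UBE2S, which encodes a ubiquitin-conjugating enzyme, and the sources used here do not state how strand was used in counting. UBE2S averaged 72.9 ± 19.4 CPM (n = 2) in R183W WM1119 cells and 125 ± 1.6 CPM (n = 3) in R183W vehicle cells, and 76.4 ± 34.0 CPM with WM1119 and 97.8 ± 12.1 CPM with vehicle in WT cells (n = 3 each). Its log2 fold change was below 0 where that of RPL28 was above it, at -0.77 in R183W cells (SE 0.30, edgeR adjusted p = 0.17) and -0.34 in WT cells (SE 0.26, adjusted p = 0.49). The 124 other tested genes within 5 Mb of RPL28 had a median log2 fold change of 0.25 with WM1119 in R183W cells and 0.23 in WT cells.

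The interaction (the WM1119 effect of R183W cells minus that of WT cells) was -0.36 (SE 0.38, edgeR adjusted p = 0.85) for RPL28.

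The counts of calls were near or below the background. WM1119 raised 1 of 78 members in R183W cells, where 1.99% of all tested genes were called higher, and 2 of 78 in WT cells, where 2.33% were. No member was called lower in either genotype, against 2.65% and 2.53% of all genes. At an unadjusted p under 0.05 edgeR had 2 lower in R183W cells and 8 in WT cells, against 9.98% and 9.94%. At an adjusted p under 0.05 DESeq2 called 1 lower in R183W cells and 0 in WT cells. It called 6.97% and 7.77% of all genes in either direction. By limma-voom 0 members were lower in both, when 4.64% and 4.485% of all genes were called in either direction. The median log2 fold change over the members was -0.06 in R183W cells and -0.17 in WT cells, beside -0.0011 and -0.0031 over all tested genes. In R183W cells, 26 members (33.3%) had both WM1119 libraries below all 3 vehicle libraries and 8 (10.3%) had both above, against 23.6% and 23.2% of all genes. In WT cells 7 (8.97%) lay entirely below and 4 (5.13%) entirely above, against 11.6% and 10.7%. Calls without WT WM1119 library 3 numbered 1 higher and 3 lower in R183W cells and 3 higher and 0 lower in WT cells, when 4.94%, 6.58%, 2.55% and 3.51% of all genes were called in those directions. Without R183W vehicle library 1 there were 2 higher calls in R183W cells, when 3.02% of all genes were called in either direction. Without WT WM1119 library 1 there were 3 higher and 2 lower calls in WT cells, when 10.03% of all genes were called. The inhibitor comparisons of the 2 genotypes share no library, and 45 of the 78 members were below 0 in both.

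**Figure D2:**
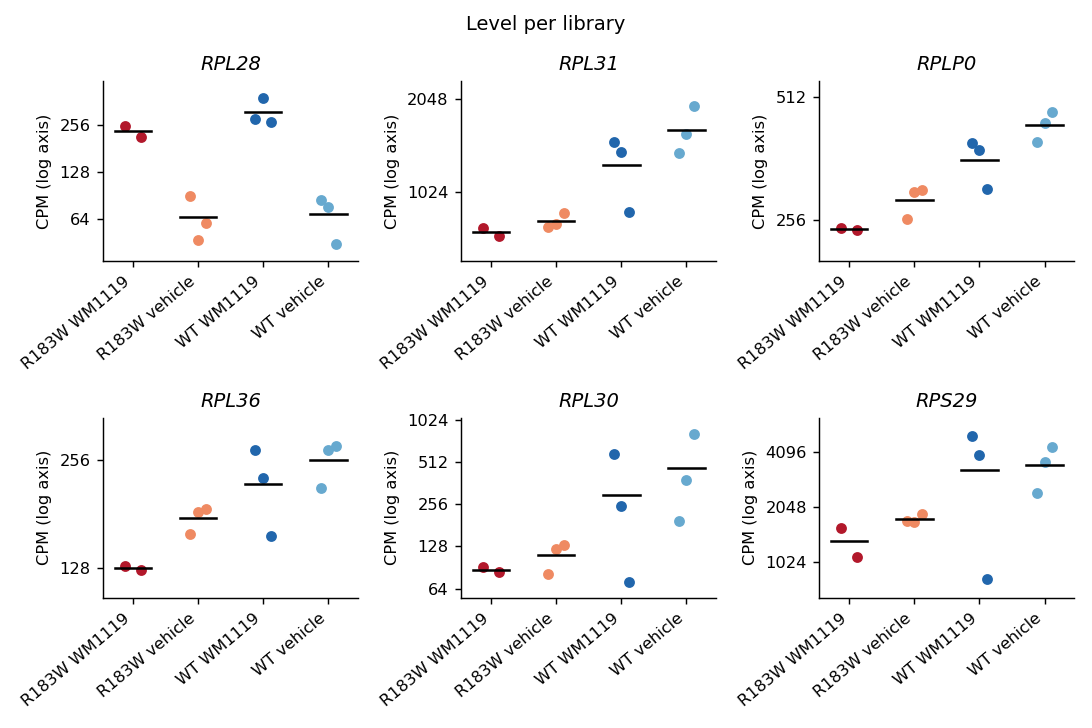
CPM per library (log axis) of RPL28, RPL31, RPLP0, RPL36, RPL30 and RPS29 in the 4 groups, with points for libraries and bars for group means. RPL28 is at 216 to 382 CPM in the 5 WM1119 libraries and 44.2 to 90.4 CPM in the 6 vehicle libraries, whereas RPL31 and RPLP0 are lower in R183W than in WT libraries under the same treatment.

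The second question was how the R183W genotype differed from WT. Under vehicle, 14 of 78 members (17.9%) were lower in R183W cells, against 6.17% of all tested genes, and no member was higher in R183W, against 6.82%. At an unadjusted p under 0.05, edgeR had 37 members lower and 0 higher, against 13.5% and 14% of all genes. At an adjusted p under 0.05, DESeq2 and limma-voom called 20 and 18 lower and 0 higher. In those fits 15.6% and 15.4% of all genes were called in either direction. The median log2 fold change was -0.33 over the members and -0.0081 over all genes; 46 large-subunit members had a median of -0.37 and 32 small-subunit members one of -0.22. In 43 members (55.1%) all 3 R183W libraries lay below all 3 WT libraries, against 18.5% of all genes. The log2 fold change was below 0 in 69 of the 78 (88.5%), against 50.6% of all genes.

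The number called depended on single libraries. It was 4, 3 and 2 without R183W vehicle library 1, 2 or 3, and 3 without either WT vehicle library 2 or 3, when 6.95% to 8.26% of all genes were called in either direction. It was 9 when R183W WM1119 library 2 was left out, 25 when WT WM1119 library 1 was and 36 when WT WM1119 library 3 was, since all groups share 1 estimate of the spread. In those fits 10.2%, 15.8% and 22.7% of all genes were called in either direction, and 10.8% were called lower in the last of them. The members' median stayed between -0.37 and -0.29 in these fits.

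RPL31, a large-subunit protein near the mouth of the peptide exit tunnel, was called under both treatments. It had 791, 810 and 880 CPM in R183W vehicle libraries, against 1374, 1572 and 1935 CPM in WT vehicle libraries. Under WM1119 it had 789 and 743 CPM in R183W libraries, against 1483, 1378 and 887 CPM in WT libraries. The genotypes did not overlap under either treatment. The log2 fold change was -0.98 (SE 0.17, edgeR adjusted p = 0.0023) under vehicle, called in all 21 alternatives (adjusted p of 5.18e-11 to 0.0201), and -0.71 (SE 0.20, adjusted p = 0.040) under WM1119, called in 10 of 21.

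RPLP0 anchors the acidic stalk, the flexible arm of the large subunit that recruits translation factors, and carries RPLP1 and RPLP2 on it. It had 258, 301 and 305 CPM in R183W vehicle libraries, against 399, 443 and 471 CPM in WT vehicle libraries. With WM1119 it had 246 and 242 CPM in R183W libraries, against 395, 381 and 306 CPM in WT libraries, again without overlap. Under vehicle the log2 fold change was -0.61 (SE 0.13, edgeR adjusted p = 0.0070), and under WM1119 it was -0.56 (SE 0.15, adjusted p = 0.029). The vehicle call held in 20 of 21 alternatives, failing without R183W vehicle library 1, and the WM1119 call in 13. RPLP1, with -0.44 (SE 0.16, adjusted p = 0.086) and -0.49 (SE 0.18, adjusted p = 0.11), and RPLP2, with -0.14 (SE 0.12, adjusted p = 0.46) and -0.32 (SE 0.13, adjusted p = 0.17), did not pass. Named RPLP0 pseudogenes held 37.8% of the counts of RPLP0 and those pseudogenes together, so its level is uncertain.

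RPL36, a small large-subunit protein, was the third member called under WM1119. It had 130 and 127 CPM in R183W WM1119 libraries, against 274, 228 and 157 CPM in WT WM1119 libraries. Under vehicle it had 159, 183.2 and 187 CPM in R183W libraries, against 214, 273 and 281 CPM in WT libraries. R183W was below WT in every library under both treatments. The log2 fold changes were -0.78 (SE 0.20, edgeR adjusted p = 0.031) under WM1119 and -0.54 (SE 0.18, adjusted p = 0.063) under vehicle, and the WM1119 call held in 14 of 21 alternatives. It was not called when WT vehicle library 2, either R183W WM1119 library, or library 1 or 2 of the WT WM1119 group was left out.

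Under WM1119, these were the 3 of 78 members called lower in R183W cells (3.85%), against 3.92% of all genes, and 0 were called higher, against 4.64%. At an unadjusted p under 0.05, edgeR had 28 lower and 0 higher, against 11.8% and 11.9%. At an adjusted p under 0.05, DESeq2 called 8 lower and 0 higher, and limma-voom 4 lower and 0 higher. In those fits 10.8% and 7.78% of all genes were called in either direction. The median was -0.30 over members and -0.02 over all genes. Without WT WM1119 library 3, 36 members were called lower, when 10.9% of all genes were, and 1 higher, when 9.94% were. Leaving out WT WM1119 library 1 gave 1 lower call, and leaving out WT WM1119 library 2, WT vehicle library 2, or either of the R183W WM1119 libraries gave 0, when 2.62% to 7.05% of all genes were called in either direction. R183W lay entirely below WT in 20 members (25.6%), against 16.3% of all genes.

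The genotype comparisons under vehicle and under WM1119 share no library, though they share a fit. All 14 members lower under vehicle had a log2 fold change below 0 under WM1119, 2 of them called there, and 65 of the 78 were below 0 in both. Over the 78 members the log2 fold changes had a Pearson correlation of 0.89 and a Spearman correlation of 0.80, given as a description, since members vary together within libraries. The interaction was called in 0 of 78 members by edgeR, DESeq2 and limma-voom, against 0.286% of all genes in edgeR, and edgeR had 0 at an unadjusted p under 0.05, against 9.3%; its median was 0.04 over members.

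**Figure D3:**
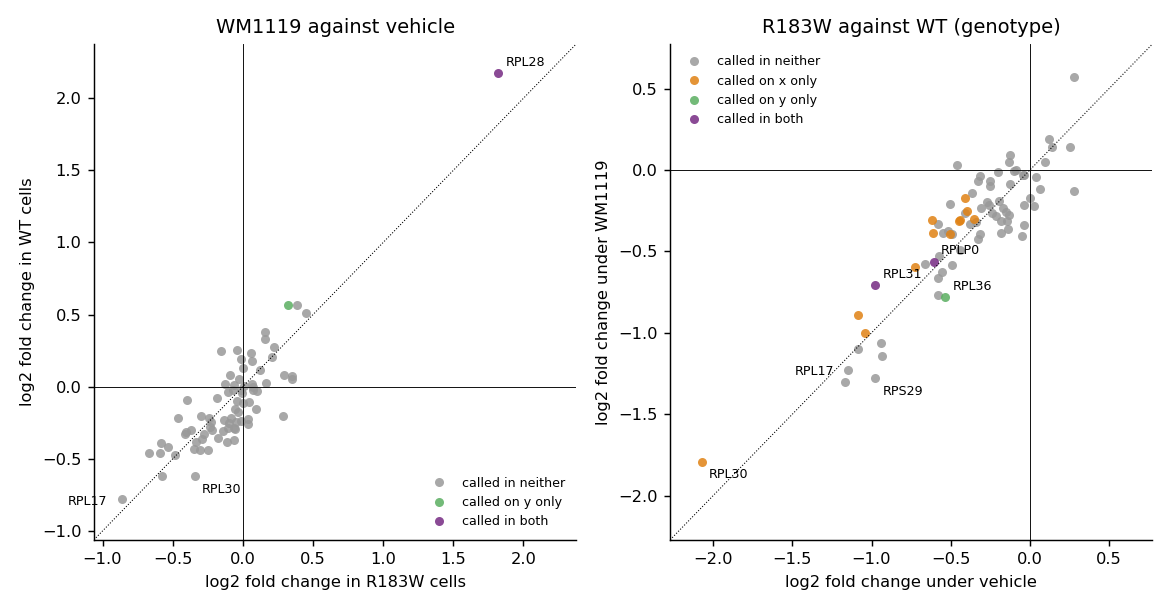
Log2 fold changes of the 78 tested members, with WM1119 against vehicle in R183W (x) and WT cells (y) on the left, and R183W against WT under vehicle (x) and WM1119 (y) on the right; colours show where edgeR called the member, and the dotted line marks equal change. On the left RPL28 stands apart at 1.82 and 2.18, and on the right 65 members fall below 0 on both axes.

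RPL30 had the largest genotype change and also the widest spread. This large-subunit protein, which in yeast binds its own transcript, had 81.2, 122 and 130 CPM in R183W vehicle libraries, against 196, 381 and 823 CPM in WT vehicle libraries. With WM1119 it had 91.7 and 83.4 CPM in R183W libraries, against 585, 248 and 71.4 CPM in WT libraries. The genotypes did not overlap under vehicle, and under WM1119 library 3 of the WT group lay below both R183W libraries. The log2 fold change was -2.07 (SE 0.58, edgeR adjusted p = 0.032) under vehicle, called in 14 of 21 alternatives, and -1.79 (SE 0.68, adjusted p = 0.12) under WM1119.

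RPS23 was also lower under vehicle. It lines the decoding centre of the small subunit and had 101, 134 and 123 CPM in R183W libraries, against 176, 236 and 348 CPM in WT libraries, a log2 fold change of -1.08 (SE 0.30, edgeR adjusted p = 0.032). The groups did not overlap. The call held in 12 of 21 alternatives. Pseudogenes held 48.8% of the combined counts of RPS23 and its named copies, so its level is uncertain.

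Further calls were smaller. RPL36A (-0.62, edgeR adjusted p = 0.022) and RPL34 (-0.61, adjusted p = 0.015) of the large subunit were followed by RPS20 of the small-subunit head (-0.51, adjusted p = 0.022), RPL7 (-0.45, adjusted p = 0.014) and RPL14 (-0.44, adjusted p = 0.020). RPS25, which some viral internal ribosome entry sites depend on, changed by -0.41 (adjusted p = 0.046), RPL32 by -0.40 (adjusted p = 0.023) and RPS12 by -0.35 (adjusted p = 0.020). RPL7 and RPS12 were among the most abundant, with 3011 ± 132 CPM in R183W and 4102 ± 117 CPM in WT vehicle cells for RPL7, and 4558 ± 129 CPM and 5828 ± 215 CPM for RPS12 (SD, n = 3 each). In each of these 8 genes the 3 R183W libraries lay below the 3 WT libraries under vehicle. The calls held in 18 of 21 alternatives for RPL34, 17 for RPL7, 16 for RPL36A and 15 each for RPS20 and RPS12. They held in 14 each for RPL14 and RPL32 and in 9 for RPS25.

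RPL5 was called as well. With RPL11 and an rRNA it forms a particle that joins the large subunit and, when free, binds the p53 regulator MDM2. RPL5 had 569, 709 and 709 CPM in R183W vehicle libraries, against 879, 1070 and 1333 CPM in WT vehicle libraries, without overlap, and a log2 fold change of -0.72 (SE 0.22, edgeR adjusted p = 0.043). This call held in 11 of 21 alternatives. RPL11 had 1897, 1784 and 1894 CPM, against 2209, 2306 and 2534 CPM, also without overlap, and a log2 fold change of -0.34 (SE 0.14, adjusted p = 0.14), which did not pass. Under WM1119 the values were -0.59 (SE 0.25, adjusted p = 0.16) for RPL5 and -0.32 (SE 0.16, adjusted p = 0.25) for RPL11. Of 10 tested genes of the p53 response to free ribosomal proteins, only BBC3, an inducer of apoptosis, was called under vehicle, at -0.66 (SE 0.21, adjusted p = 0.050, under the threshold before rounding), and the list's median was 0.14. Of all tested genes 6.17% were called lower and 6.82% higher in that comparison.

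Several small-subunit proteins had genotype changes near 0. RPS3 at the mRNA entry site had 4169 ± 518 CPM in R183W vehicle cells and 4061 ± 492 CPM in WT vehicle cells (n = 3 each), a log2 fold change of 0.04 (SE 0.13, edgeR adjusted p = 0.88). RPS2 beside it changed by -0.10 (SE 0.11, adjusted p = 0.59), RPSA at the mRNA exit by -0.13 (SE 0.14, adjusted p = 0.58), and RPS15 near the decoding site by 0.25 (SE 0.13, adjusted p = 0.24). RPS19, the most frequently mutated gene of Diamond-Blackfan anaemia, a marrow failure caused by ribosomal protein mutations, changed by -0.09 (SE 0.14, adjusted p = 0.74). Of other genes of that disease, RPL5 was called, as above, and RPL11, RPL35A, RPS26, RPS24, RPS7 and RPS10 had log2 fold changes of -0.94 to -0.33 under vehicle, with adjusted p of 0.069 to 0.20.

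Other proteins of the peptide exit tunnel, taken as a set group of 6, did not pass in either genotype comparison. Under vehicle they ran from -1.15 for RPL17 (SE 0.47, edgeR adjusted p = 0.13) through -0.52 for RPL39 (adjusted p = 0.067), -0.50 for RPL19 (adjusted p = 0.059) and -0.49 for RPL4 (adjusted p = 0.093) to -0.18 for RPL35 (adjusted p = 0.32) and -0.12 for RPL23A (adjusted p = 0.69). RPS27A, made as a fusion to ubiquitin, changed by -0.58 (SE 0.24, adjusted p = 0.13).

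Part of the members varied together inside the WT groups. Over all 78 members the median range between libraries was 1.51-fold in the WT WM1119 group and 1.27-fold in the WT vehicle group. Over all tested genes it was 1.63-fold and 1.39-fold, so the members as a whole did not vary more than other genes. How many of all tested genes spanned 2-fold was not counted. In the WT WM1119 group 17 of 78 members spanned at least 2-fold between libraries, and 16 of these were highest in library 1 and 16 lowest in library 3. In the WT vehicle group 9 members did, all highest in library 3 and lowest in library 1, and all 9 were among the 17. They included RPL30, RPL10A, RPL13, RPL17, RPL7A, RPS15A, RPS6 and RPS7. The R183W WM1119 and R183W vehicle groups had 2 and 1 such members, RPL17 with the widest range in each, at 3.44-fold and 2.13-fold.

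RPS29, a small zinc-binding protein of the small-subunit head, shows the pattern. It had 1584 and 1095 CPM in R183W WM1119 libraries and 1720, 1695 and 1869 CPM in R183W vehicle libraries, against 4999, 3933 and 827 CPM in WT WM1119 libraries and 2446, 3621 and 4337 CPM in WT vehicle libraries. WT WM1119 library 3 fell below every R183W library, while the other 5 WT libraries lay above them all. RPS6, whose phosphorylated tail is a common readout of mTORC1 signalling, had 221 and 169 CPM in R183W WM1119 libraries and 235, 284 and 300 CPM in R183W vehicle libraries. In WT cells RPS6 had 676, 444 and 126 CPM with WM1119 and 332, 617 and 787 CPM with vehicle, with library 3 of the WM1119 group again below all others. RPL10A, RPS6, RPS29, RPS7, RPL7A and RPL17 had genotype log2 fold changes of -1.17 to -0.94 under vehicle and of -1.30 to -1.06 under WM1119 with edgeR adjusted p of 0.10 to 0.24, and were not called.

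RPS27L went the other way within the group. It had 180 and 182 CPM in R183W WM1119 libraries and 158, 134 and 134 CPM in R183W vehicle libraries, against 83.5, 82.2 and 204 CPM in WT WM1119 libraries and 148, 106 and 97.9 CPM in WT vehicle libraries. Library 3, low in RPS29, was the highest of the WT WM1119 group here.

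Deviations of libraries from their group means also went with base composition, in WT groups and in the R183W vehicle group. Each library's deviation from its group mean had a Spearman correlation with GC content over the 78 members of 0.39 in WT WM1119 library 3, 0.35 in WT vehicle library 1, -0.37 in WT WM1119 library 1 and -0.40 in WT vehicle library 3. Over 13581 tested genes the values for the same libraries were 0.19, 0.18, -0.23 and -0.24. R183W vehicle libraries 1 and 2 had 0.32 and -0.40 over the members and 0.30 and -0.18 over all those genes, although 1 member spanned 2-fold in that group. The members' genotype log2 fold changes had Spearman correlations with GC of 0.42 under vehicle and 0.18 under WM1119, and their inhibitor changes of 0.17 in R183W and 0.44 in WT cells. With a correction for GC content 16 members were called lower under vehicle and 6 under WM1119, when 12.6% and 9.23% of all genes were called in either direction. With one for length the counts were 22 and 5, when 12.3% and 8.56% of all genes were. The part of base composition in the single-gene results was not otherwise tested.

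**Figure D4:**
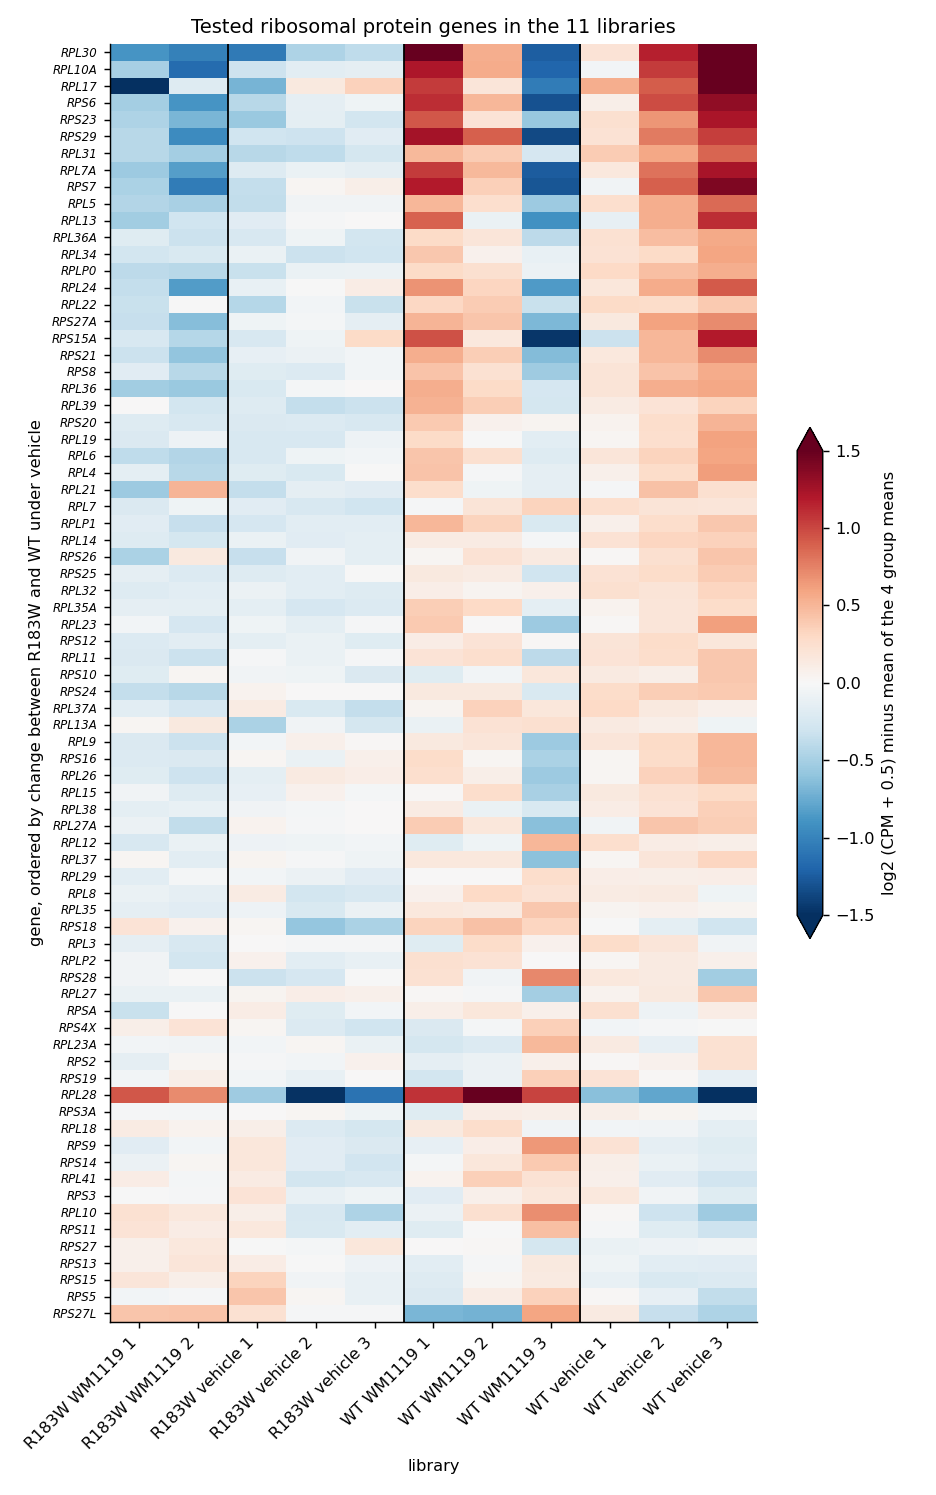
Deviation of 76 of the 78 tested members (rows, ordered by the genotype change under vehicle) in each of the 11 libraries from the mean of the 4 group means, in log2 (CPM + 0.5), coloured from -1.5 to 1.5. Rows at the top are high in WT WM1119 libraries 1 and 2 and WT vehicle libraries 2 and 3 and low in WT WM1119 library 3, and the RPL28 row follows the treatment.

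Position in the genome also went with part of the genotype change. The genes lower in R183W include 3 of the 4 members on chromosome 8, namely RPL7, RPL30 and RPS20, but not RPL8, at -0.19 (SE 0.13, edgeR adjusted p = 0.37). The 493 non-member genes tested on that chromosome had a median log2 fold change of -0.22 under vehicle and -0.20 under WM1119; on chromosome 2, which holds RPL31, it was -0.24 and -0.23 over 937 genes, on chromosome 16 it was 0.32 and 0.29 over 676 genes, and on chromosome 13 it was 0.24 and 0.28 over 230 genes. Within 5 Mb of each member, the median of the non-member genes under vehicle was -0.54 around RPL30 (54 genes), -0.62 around RPL7 (21 genes), -0.41 around RPS20 (21 genes) and -0.46 around RPS12 (26 genes), but 0.01 around RPL8 (81 genes). RPL7 at -0.45 and RPS12 at -0.35 changed by less than the median of their neighbours. RPL31 had -0.29 around it (59 genes), and RPLP0 -0.09 (98 genes).

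Over all 78 members the median of these neighbourhood values was 0.02 under vehicle and -0.02 under WM1119, so the neighbours as a whole were not lower. The member lay below its neighbourhood in 70 of 78 cases under vehicle and in 72 under WM1119, by a median of 0.38 and 0.27 on the log2 scale. Member and neighbourhood values had Spearman correlations of 0.37 and 0.45, a description in which windows overlap. Members on chromosome 16 had a median of -0.57 under vehicle against the 0.32 of their chromosome. The 12 members on chromosome 19 had a median of -0.04, with 0.10 over 871 other genes. The part of chromosome position in the members' changes was not otherwise tested. DNA copy number of the cells was not analysed here, so a copy number difference between R183W and WT cells at these loci and a change in expression cannot be told apart.

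**Figure D5:**
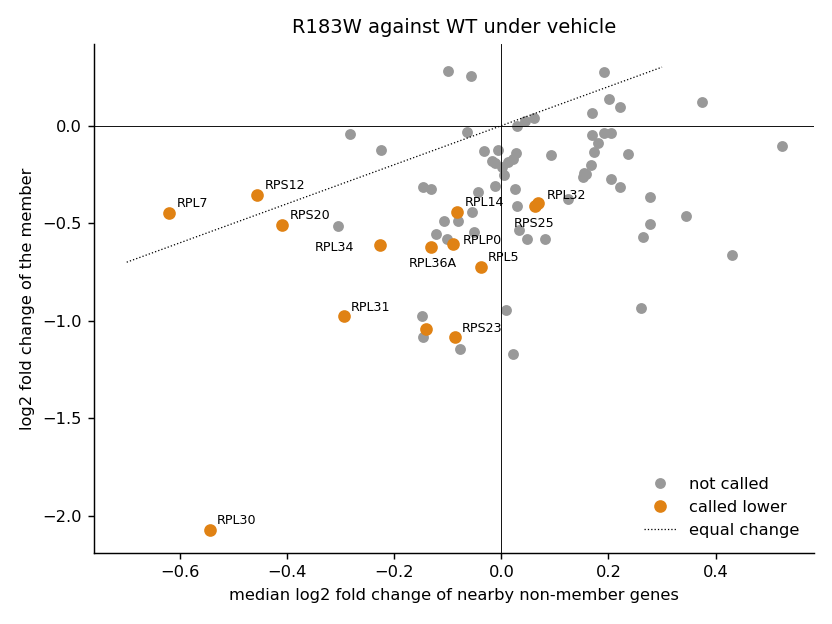
Log2 fold change between R183W and WT under vehicle of each tested member (y) against the median over non-member genes within 5 Mb of it (x), 1 point per member, with called members in orange. RPL7 and RPS12 lie above the line of equal change, and 70 of 78 members lie below it.

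Levels per transcript length spread widely among genes whose products stand in the ribosome in equal numbers. In CPM per kilobase of median annotated transcript, averaged over the 11 libraries, RPL37A stood at 9096, RPS12 at 8119 and RPS19 at 6745, while RPL17 stood at 25.7, RPL4 at 28.8 and RPL22 at 48.4. The highest of the tested members was 355-fold above the lowest. The median member transcript was 764 bases long, against 2386 over tested genes, and the library protocol does not state how well such short transcripts were retained. Reads are also shared with copies: 76 members had named pseudogenes, 1124 in all. Of the combined counts of a member and its copies, the copies held 59.1% for RPL22, 9.39% for RPL17 and 0.329% for RPL4. The highest such share among the members was 94.5%. Of the 81 members, 42 overlapped another gene and 28 hosted small nucleolar RNAs in the annotation.

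The tissue-restricted paralogs were near absent. RPL3L, of heart and skeletal muscle, had a single count, and RPL10L, of the testis, had none, while their main copies RPL3 and RPL10 averaged 674 and 212 CPM. RPL39L had 0.302 to 1.71 CPM across libraries, near the floor, with RPL39 at 150 CPM. RPS27L, a target of p53, was expressed at 170 CPM per kilobase against 965 for RPS27.

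Genes of the same system were counted from fixed lists. Over all tested genes, edgeR called 6.82% higher and 6.17% lower in R183W under vehicle, and 4.64% and 3.92% under WM1119. WM1119 raised 1.99% and lowered 2.65% of all tested genes in R183W cells, and 2.33% and 2.53% in WT cells. These shares are the background for the list counts below. Of 20 other TOP-type translation mRNAs, 6 were lower and 1 higher in R183W cells under vehicle, with a list median of -0.27. PABPC1, the poly(A)-binding protein, averaged 2140 ± 218 CPM in R183W vehicle cells and 4597 ± 255 CPM in WT vehicle cells (n = 3 each), a log2 fold change of -1.10 (SE 0.12, edgeR adjusted p = 5.2e-05), and changed by -1.05 (SE 0.14, adjusted p = 0.00039) under WM1119. The initiation factor subunits EIF3H (-1.04, adjusted p = 0.016) and EIF3E (-0.88, adjusted p = 0.012) and the elongation factor subunit EEF1B2 (-0.45, adjusted p = 0.027) fell too, while EIF3K rose by 0.49 (adjusted p = 0.035). EEF2, the elongation factor of translocation, passed under WM1119, at -0.45 (adjusted p = 0.047). PABPC1, EIF3E and EIF3H also lie on chromosome 8. The part of chromosome position in the changes of this list and of the lists below was not tested.

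Host genes of small nucleolar RNAs that start with a TOP tract had a list median of -0.47 under vehicle. Of these 14, 3 were lower, against 6.17% of all tested genes, and 0 higher, against 6.82%. EPB41L4A-AS1 changed by -1.04 (SE 0.15, edgeR adjusted p = 0.00038), SNHG6 by -1.22 (SE 0.27, adjusted p = 0.0090) and ZFAS1 by -1.09 (SE 0.28, adjusted p = 0.020). Under WM1119, EPB41L4A-AS1 at -0.84 (adjusted p = 0.0084) and SNHG6 at -1.21 (adjusted p = 0.027) passed. WM1119 in WT cells lowered EPB41L4A-AS1 by 0.61 on the log2 scale (adjusted p = 0.031) and NPM1, a nucleolar chaperone of assembly, by 0.38 (adjusted p = 0.035).

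Among 20 regulators of TOP mRNAs and mTORC1, WM1119 raised 2 in both genotypes. It raised 1.99% of all tested genes in R183W cells and 2.33% in WT cells. MLST8, a core subunit of the mTOR complexes, averaged 40.6 ± 4.1 CPM with WM1119 (n = 2) and 13.6 ± 2.9 CPM with vehicle (n = 3) in R183W cells, a log2 fold change of 1.57 (SE 0.28, edgeR adjusted p = 0.0064), and rose by 1.17 (SE 0.26, adjusted p = 0.023) in WT cells. RPS6KB2, a kinase of RPS6, rose by 1.49 (SE 0.39, adjusted p = 0.047) in R183W and by 1.82 (SE 0.37, adjusted p = 0.013) in WT cells. Between genotypes under vehicle, MTOR (-0.52, adjusted p = 0.046) and CNBP, a protein that binds TOP mRNAs (-0.48, adjusted p = 0.042), were lower in R183W. LARP1 itself was not called in any comparison.

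Of 72 tested mitochondrial ribosomal proteins, MRPS34 rose by 1.05 (SE 0.13, edgeR adjusted p = 0.00017) and MRPS28 fell by 1.25 (SE 0.26, adjusted p = 0.0068) in R183W cells under vehicle, and the list's median was 0.01, beside the -0.33 of the cytosolic members. Under WM1119 MRPS28 fell by 2.10 (SE 0.35, adjusted p = 0.0020), and the list's median was -0.16, beside the -0.30 of the cytosolic members; the difference between the lists was not tested. Of 23 chaperones, importins and maturation factors, RIOK1 (-0.57, adjusted p = 0.0088), a kinase of late small-subunit maturation, and MDN1 (-0.42, adjusted p = 0.046), a large-subunit remodelling ATPase, were lower in R183W under vehicle, with a list median of 0.10. WM1119 in WT cells raised the importin IPO9 (0.66, adjusted p = 0.0093) and lowered the nucleolar GTPase GNL3 (-0.75, adjusted p = 0.041).

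Of 7 tested ribosomal proteins outside the naming rule, RACK1, which sits on the small-subunit head, was lower in R183W under vehicle, with 1512 ± 53.7 CPM in R183W and 2084 ± 232 CPM in WT cells (n = 3 each; -0.46, SE 0.12, edgeR adjusted p = 0.018). RPL26L1, a paralog of RPL26 at 2.07 to 6.89 CPM by group mean, was lower under WM1119 (-1.68, SE 0.46, adjusted p = 0.037). Among 11 transcription factors at ribosomal protein promoters, only E2F1 was called. It was higher in R183W under vehicle (1.09, SE 0.20, adjusted p = 0.0025), fell with WM1119 in R183W cells (-0.85, SE 0.22, adjusted p = 0.047) and rose with it in WT cells (0.84, SE 0.20, adjusted p = 0.029). Its interaction was -1.68 (SE 0.30, adjusted p = 0.031).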

How the data were processed

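The authors deposited expected counts (estimated read numbers, 1 row per gene), all of them whole numbers; STAR, RSEM and hg19 are named in the submitters' processing notes, without versions or roles. Per the labels' protocols, RNA came from RNeasy columns with DNase I and libraries from a ScriptSeq Complete Gold kit; the labels give the molecule as polyA RNA. Gene IDs were matched to GENCODE 29 for names, chromosomes, neighbours, length and GC content (52301 matched); its build differs from hg19, so no coordinates of the counts are given. One edgeR 4.0.16 quasi-likelihood fit (R 4.3.3) with 4 group means, filterByExpr and TMM gave 5 two-sided contrasts, adjusted by Benjamini-Hochberg over 13980 genes and called under 0.05; its biological coefficient of variation was 19.6%. The code was tested on simulated data. DESeq2 1.42.0, limma-voom (limma 3.58.1), other scalings, filters, corrections and left-out libraries were alternatives. Named were members called in a comparison, members of set role groups and paralogs, the 3 highest and 3 lowest per length, and up to 4 called genes per list; RPL8, RPL7A, RPL10A, RPL13, RPS15A, RPS29 and UBE2S were named after their values were seen. Members and lists were chosen with earlier results of these data known. Some members are not reported here by name, though totals include them.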

Additional observations from a re-analysis of the deposited data

How the results depend on the processing

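No called member changed direction in the 21 alternatives, while the members' interaction median, 0.04, ran from -0.088 to 0.134 with 1 library left out. The count of members called differed from the main value as follows, with the share of all genes called in either direction in parentheses. For WM1119 in R183W cells (1 member) it was 8 with no filter (4.74%), 2 with DESeq2 (6.97%) and 17 with the libraries of the comparison only (18.2%), beside 4.64% in the main result. For WM1119 in WT cells (2 members) it was 10 with no filter (5.50%) and 3 with DESeq2 (7.77%), beside 4.86%. It was 1 each with library totals only (5.04%), a replicate block (2.05%), a GC correction (4.27%) and the libraries of the comparison only (1.09%). For genotype under vehicle (14 members, beside 13.0% of all genes) it was 31 with no filter (10.2%) and 22 with a length correction (12.3%). It was 37 with the libraries of the comparison only (22.4%) and 4 with a replicate block (8.51%). TMM from non-member genes gave 13 (13.1%) and library totals only gave 11 (13.3%). DESeq2 gave 20 (15.6%), limma-voom 18 (15.4%) and a GC correction 16 (12.6%). For genotype under WM1119 (3 members, beside 8.56% of all genes) it was 23 with no filter (7.62%) and 8 with DESeq2 (10.8%). It was 6 with a GC correction (9.23%), 5 with a length correction (8.56%) and 4 with limma-voom (7.78%). It was 1 with library totals only (8.91%), and 0 with a replicate block (4.85%) or the libraries of the comparison only (2.49%). The block changed no count of interaction calls, which was 0 in every setting. Deviations of same-numbered libraries from their group means had correlations of -0.39 to 0.14. With 2 or 3 libraries per group, the deviations within a group are tied to one another. These correlations therefore cannot decide whether the numbers pair the libraries. Leaving out 1 library each gave 1 to 4, 1 to 5, 2 to 36 and 0 to 37 calls in the same order, with 0.803% to 11.51%, 1.78% to 10.03%, 6.95% to 22.7% and 2.62% to 20.8% of all genes called. The members' median with WM1119 in R183W cells was -0.087 with TMM from non-member genes, -0.084 with library totals, -0.086 with no filter and -0.082 with the block, and -0.105 to -0.062 with a library left out. RPS12 had the most counts of the members over all libraries. Without it the mean share of counts was 5.67% in R183W WM1119, 6.05% in R183W vehicle and 7.41% in WT vehicle libraries. In WT WM1119 libraries 1, 2 and 3 the share without RPS12 was 7.35%, 7.25% and 5.80%. The causes were not tested. Group sizes of 2 and 3, a total of 2609922 counts in the shallowest library and reads shared with copies limit what single members can show.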
